A study of Mus musculus with 10 samples.

Results

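Wnt ligands are secreted, lipid-modified glycoproteins that signal between neighbouring cells, and 9 of their genes are described here across the differentiation of mouse embryonic stem cells into neuromesodermal progenitors (NMPs). The 9 genes, Wnt3, Wnt3a, Wnt4, Wnt5a, Wnt5b, Wnt6, Wnt7b, Wnt8a and Wnt11, were taken by name from a table of raw counts that held 52459 genes, 19 of them Wnt ligand genes. The cells were ES-Bruce4, a wild-type line of strain C57BL/6, and all 10 libraries came from this line. Its cells had been kept with LIF on embryo fibroblast feeders, which were depleted before plating, and RNA was taken from whole dishes. The N2B27 medium was given basic Fgf at 10 ng/ml on day 0. On day 2 the protocol supplied 5 µM CHIR99021, a Gsk3 inhibitor that stabilises β-catenin and so stands in for a Wnt signal, and cultures were divided on day 3. Whether D2 cells were taken before CHIR99021 was added is not given in the sources used here. Libraries of day 2, called D2, carry the label of ES-derived epiblast stem cells, and those of day 3 (D3), of day 6 (D6) and of day 7 without (D7) or with Gdf11 (D7G) carry the label of NMPs. Gdf11, a secreted Tgf-β family ligand, had been given to D7G cells at 50 ng/ml for 24 h from day 6. Each group had n = 2 libraries. The labels do not say whether these came from separate cultures, so p-values reflect library-to-library spread that can be technical.

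A Wnt protein is acylated by Porcn, escorted to the cell surface by Wls, and bound by Frizzled receptors. With Lrp5 or Lrp6 as co-receptor the signal stabilises β-catenin, which acts with TCF/LEF factors on target genes, whereas with Ror or Ryk receptors it can act without β-catenin on cell polarity and movement. Wnt3, Wnt3a and Wnt8a are known in the embryo for β-catenin signalling in the primitive streak and tail bud, where NMPs reside, and Wnt5a, Wnt5b and Wnt11 for the elongation and polarity of the same tissues.

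Libraries held 31078950 to 33418015 counts, and 18818 genes passed the filter on low counts, the 9 ligand genes among them. Wnt3a reached 10 counts in both libraries of only 3 groups and Wnt6 of 4 groups, while the other ligands did so in all 5. Markers of the labelled cell types were present: 5 epiblast genes (Pou5f1, Fgf5, Otx2, Pou3f1, Dnmt3b) summed to between 2185 and 2195 CPM (counts scaled to library size) at D2 and to at most 423 later, and 5 NMP genes (T, Sox2, Nkx1-2, Cdx2, Fgf8) to between 166 and 173 CPM at D2, 825 and 828 at D3, 476 and 478 at D6, 343 and 346 at D7, and 276 and 280 at D7G. All 5 NMP genes were at 1 CPM or more in both libraries of every group from D3 on. Sox2 held most of the NMP sum at D2 (163 CPM), D7 (232 CPM) and D7G (193 CPM). T, Nkx1-2, Cdx2 and Fgf8 had means of 0.919, 3.45, 0.591 and 1.49 CPM at D2 and 232, 235, 154 and 33.4 at D3. In the same order their means were 19.8, 39.9, 41.9 and 11.3 CPM at D7 and 29.3, 24.8, 25.0 and 6.10 at D7G. Because RNA came from whole dishes, fewer cells of a type and less RNA per cell cannot be told apart in any value below.

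The start regions of the ligand genes are shown because CHIR99021 acts through β-catenin and TCF/LEF, whose binding letters can be looked for there. RefSeq promoter sequences (GRCm38.p6, 250 bases before to 50 after a start) were matched by symbol for 6 of the 9 genes, 9 sequences in all, and those of Wnt5a, Wnt7b and Wnt8a are not shown. The TCF/LEF letters, CTTTG followed by A or T and then again by A or T, searched on both strands and set in capitals, occurred in 3 of the 9 sequences, against 16.9% of 32851 promoters of the same length. Their first base stood at position -71 from the start in the third promoter of Wnt5b (chr6:119449337-119449636, minus strand), at -51, on the opposite strand, in the first promoter of Wnt11 (chr7:98834862-98835161, plus strand) and at 19 in Wnt3 (chr11:103773925-103774224, plus strand). The promoters of Wnt3a (chr11:59290702-59291001, minus strand) and Wnt4 (chr4:137277385-137277684, plus strand) hold none of these letters in this window and are shown as the ligands with the largest change at D3 and the highest level at D7. All 5 are written 5′ to 3′ along the gene.
Wnt5b promoter 3: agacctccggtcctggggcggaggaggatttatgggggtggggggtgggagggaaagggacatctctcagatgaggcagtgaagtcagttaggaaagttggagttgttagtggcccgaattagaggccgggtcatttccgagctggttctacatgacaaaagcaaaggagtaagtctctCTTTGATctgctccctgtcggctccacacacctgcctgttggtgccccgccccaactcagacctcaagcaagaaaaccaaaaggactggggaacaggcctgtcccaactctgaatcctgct
Wnt11 promoter 1: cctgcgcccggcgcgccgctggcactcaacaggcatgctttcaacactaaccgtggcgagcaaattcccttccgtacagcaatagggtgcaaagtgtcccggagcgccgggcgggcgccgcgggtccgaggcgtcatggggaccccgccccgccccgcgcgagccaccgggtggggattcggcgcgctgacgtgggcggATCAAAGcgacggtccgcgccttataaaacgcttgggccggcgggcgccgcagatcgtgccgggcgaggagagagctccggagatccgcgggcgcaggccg
Wnt3 promoter: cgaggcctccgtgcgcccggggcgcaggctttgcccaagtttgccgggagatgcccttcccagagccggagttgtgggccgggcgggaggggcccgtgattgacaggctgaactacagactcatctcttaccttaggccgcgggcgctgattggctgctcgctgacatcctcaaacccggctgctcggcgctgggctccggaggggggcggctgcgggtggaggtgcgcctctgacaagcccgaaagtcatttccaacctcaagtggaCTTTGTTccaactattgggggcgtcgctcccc
Wnt3a promoter: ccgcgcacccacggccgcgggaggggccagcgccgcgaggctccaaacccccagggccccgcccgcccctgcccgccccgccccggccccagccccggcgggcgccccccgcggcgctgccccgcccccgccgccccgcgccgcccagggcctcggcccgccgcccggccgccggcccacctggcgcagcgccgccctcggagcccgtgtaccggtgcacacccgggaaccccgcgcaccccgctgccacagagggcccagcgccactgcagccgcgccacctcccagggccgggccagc
Wnt4 promoter: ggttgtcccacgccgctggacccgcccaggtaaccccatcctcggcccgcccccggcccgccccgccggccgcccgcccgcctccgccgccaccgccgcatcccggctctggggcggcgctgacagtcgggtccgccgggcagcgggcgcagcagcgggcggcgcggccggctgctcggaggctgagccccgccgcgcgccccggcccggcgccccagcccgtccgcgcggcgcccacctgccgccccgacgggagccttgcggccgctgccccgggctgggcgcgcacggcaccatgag

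The Cdx letters TTTATNG, searched on both strands, occurred in the third Wnt5b promoter, from position -222, and in none of the other 8 sequences, against 10.9% of all promoters. The T-box letters TCACACC occurred in none of the 9, against 3.98% of all promoters. The Wnt3a and Wnt4 windows were 86.3% and 84.3% G and C, above the median of 52.7% over all promoters, and the third Wnt5b window was 55%. A match describes letters in a window, not binding.

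To compare ligands with each other, each count was scaled by the library's total (with TMM factors) and by the gene's exon length, giving CPM per kb, and each ligand's share of the sum over the 9 genes was taken within a library. Wnt8a led at D2, Wnt8a with Wnt6 and Wnt5b close behind at D3, Wnt5b at D6, Wnt4 at D7 and Wnt5b at D7G. The sum was 14.4 and 14.4 CPM per kb in the D2 libraries, 90.1 and 97.8 at D3, 23.3 and 23.4 at D6, 22.7 and 22.6 at D7, and 26.4 and 27.8 at D7G. Ligand transcripts were thus highest at D3 in both libraries, with no overlap with any other group. The level of each ligand in every library is plotted on a log scale, and the shares are stacked by library beside their sum.

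**Figure D1:**
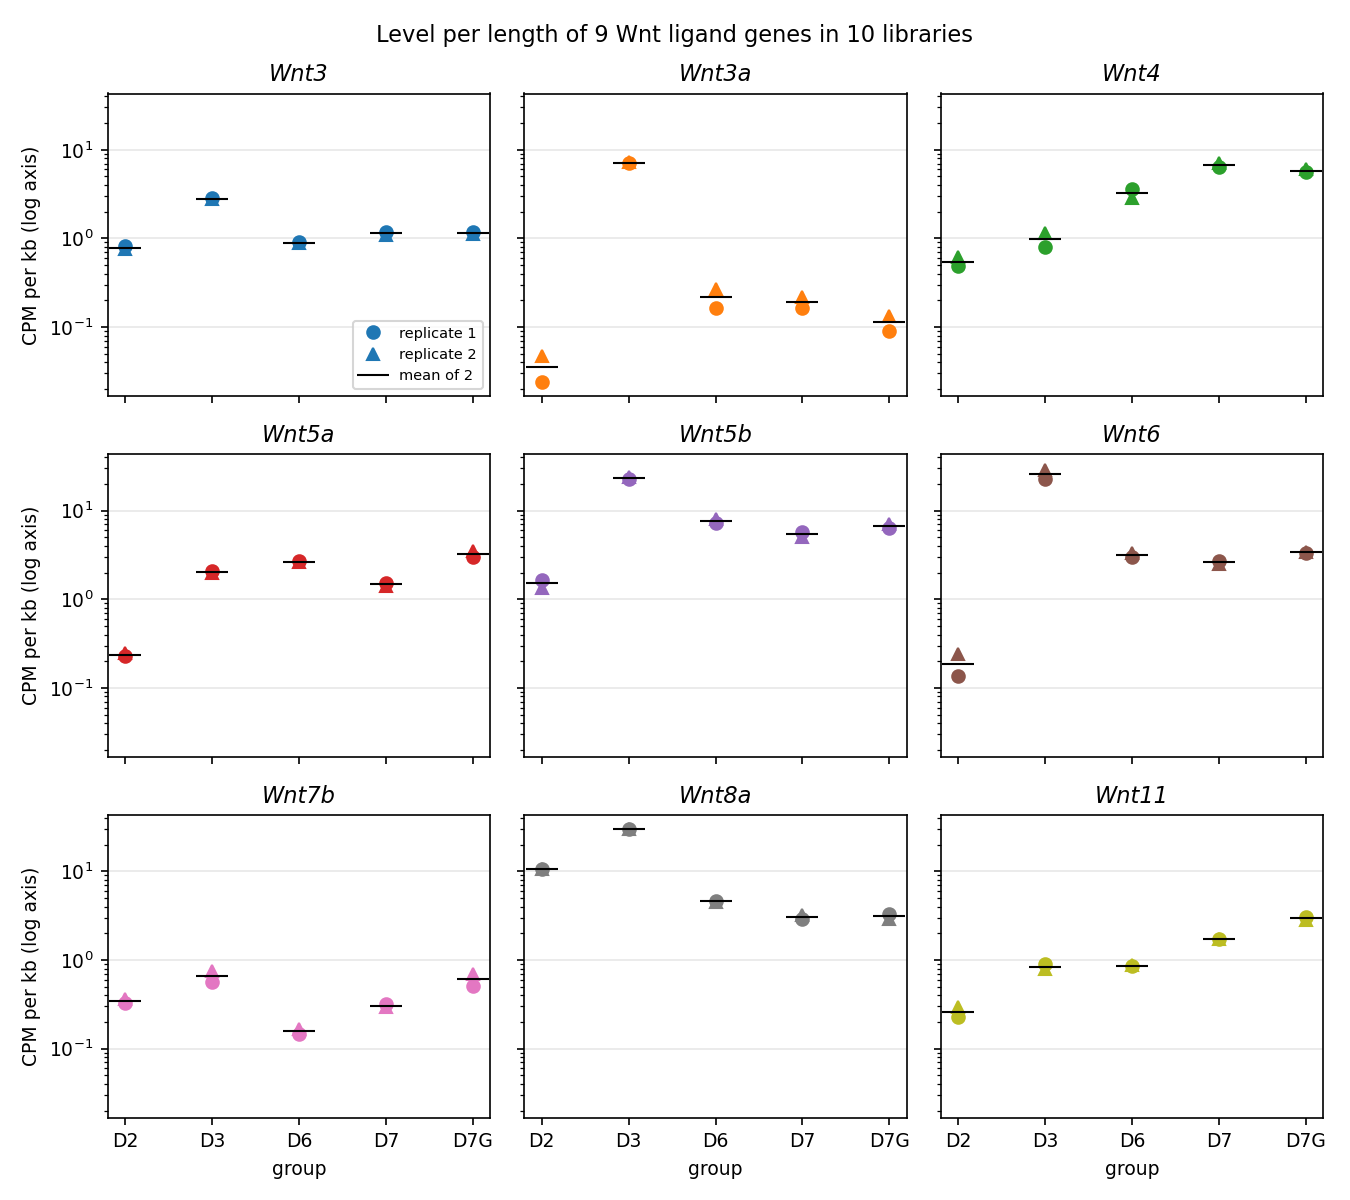
Level of the 9 Wnt ligand genes in CPM per kb of exon (log axis) in the 5 groups; circles and triangles are the libraries of replicate 1 and replicate 2, and bars their mean. The mean is highest at D3 for 6 of the 9 ligands, Wnt4 is highest at D7 and Wnt11 at D7G.

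At D2 Wnt8a took 72.9% ± 0.0639 (SD, n = 2) of the sum, with a level of 10.5 ± 0.0109 CPM per kb. Wnt5b followed at 1.51 ± 0.221 CPM per kb, 6.97 times lower, then Wnt3 at 0.790 ± 0.0421, Wnt4 at 0.548 ± 0.0908 and Wnt7b at 0.346 ± 0.0277. The libraries of these 5 did not overlap from one rank to the next. Wnt11 (0.262 ± 0.0460) and Wnt5a (0.237 ± 0.0158) overlapped, as did Wnt5a and Wnt6 (0.187 ± 0.0749), and Wnt3a was last at 0.0357 ± 0.0170 CPM per kb. D2 was the group in which a single ligand held most of the sum.

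At D3 the lead was shared. Wnt8a stood at 30.1 ± 0.0816 CPM per kb (32.1% ± 1.94 of the sum), Wnt6 at 25.9 ± 4.36 (27.5% ± 3.05) and Wnt5b at 23.5 ± 0.799 (25.0% ± 0.591). The libraries of Wnt6 and Wnt5b overlapped, while both lay below those of Wnt8a. Wnt3a came next at 7.12 ± 0.136 CPM per kb, ahead of Wnt3 (2.82 ± 0.0573) and Wnt5a (2.03 ± 0.0488). Wnt4 (0.975 ± 0.253), Wnt11 (0.839 ± 0.0801) and Wnt7b (0.659 ± 0.136) closed the order, with Wnt4 and Wnt11 overlapping. The rank of Wnt8a at D3 depends on length, since Wnt8a is the shortest of the 9 genes (1746 bases of exon): by counts alone Wnt5b held 27.6% and Wnt8a 23.3%. The mean of Wnt6 without length (56.8 ± 9.55 CPM) was also above that of Wnt8a (52.6 ± 0.142), with overlapping libraries.

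At D6 Wnt5b led with 7.59 ± 0.506 CPM per kb (32.5% ± 2.08 of the sum), followed by Wnt8a at 4.58 ± 0.121. Wnt4 (3.23 ± 0.569) and Wnt6 (3.16 ± 0.194) overlapped, and Wnt5a followed at 2.66 ± 0.0380. Wnt3 (0.896 ± 0.0203) stood just above Wnt11 (0.861 ± 0.0184), an order that depends on length. Without length Wnt3 was at 2.76 ± 0.0625 CPM and Wnt11 at 3.56 ± 0.0760. Wnt3a (0.216 ± 0.0748) and Wnt7b (0.157 ± 0.0158) were last and overlapped. By counts alone, Wnt5a, whose exons are the longest (7823 bases), held 27.0% against 26.2% for Wnt5b.

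At D7 Wnt4 led with 6.71 ± 0.460 CPM per kb (29.7% of the sum, 28.2% and 31.2% in its libraries), above Wnt5b at 5.38 ± 0.448 (23.8% ± 1.93) with no overlap between their libraries. Wnt8a (3.09 ± 0.220), Wnt6 (2.62 ± 0.153), Wnt11 (1.71 ± 0.00265), Wnt5a (1.48 ± 0.0857) and Wnt3 (1.14 ± 0.0639) came next, each apart from its neighbour. Wnt7b (0.306 ± 0.0179) and Wnt3a (0.190 ± 0.0393) were last. At D7G Wnt5b was ahead again, with 6.70 ± 0.543 CPM per kb (24.7% ± 1.07) against 5.84 ± 0.381 (21.5% ± 0.594) for Wnt4, again without overlap. Behind them Wnt6 (3.38 ± 0.0808), Wnt5a (3.24 ± 0.320), Wnt8a (3.10 ± 0.259) and Wnt11 (2.96 ± 0.178) overlapped from one rank to the next, and Wnt3 (1.15 ± 0.0283), Wnt7b (0.605 ± 0.132) and Wnt3a (0.113 ± 0.0313) were apart. By counts alone Wnt5a led at D7G with 25.5%, against 17.9% for Wnt5b.

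**Figure D2:**
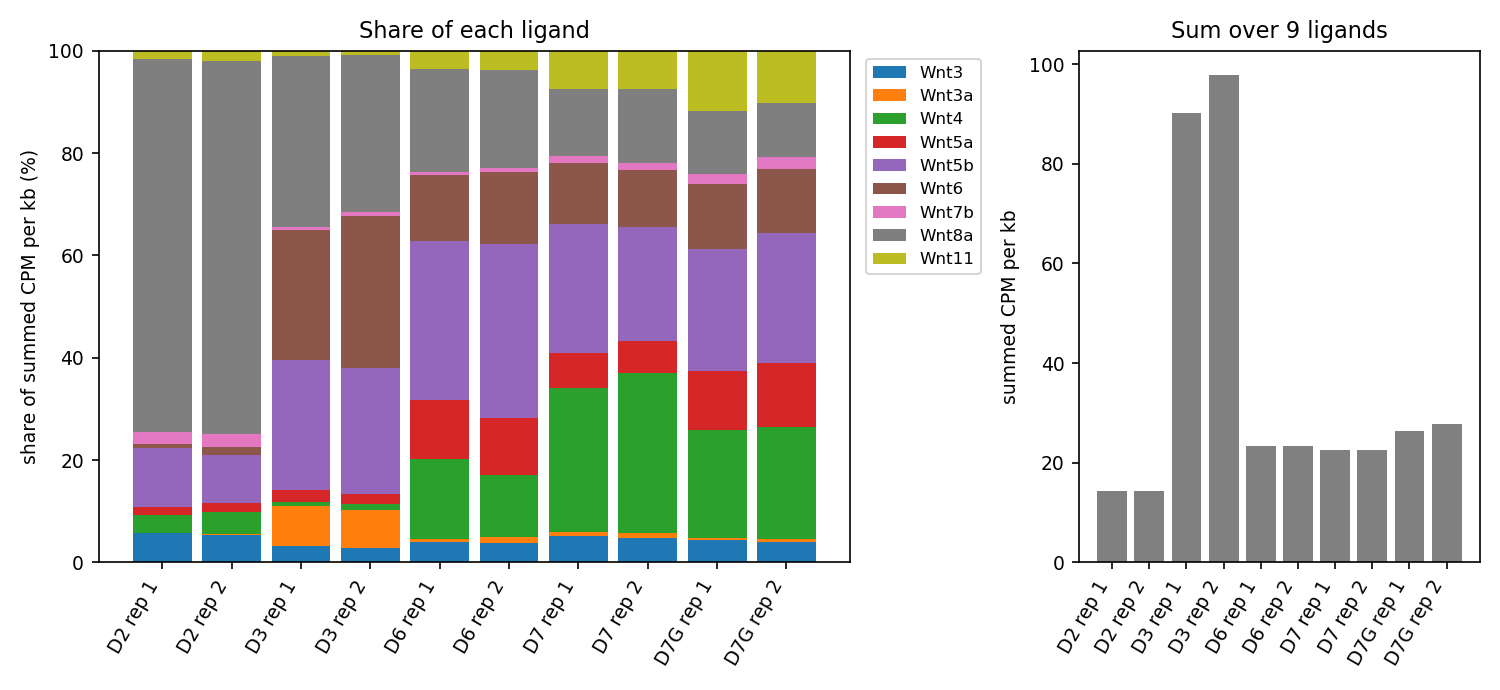
Left, share of each Wnt ligand gene in the summed CPM per kb of the 9 genes, 1 stacked bar per library; right, that sum in CPM per kb. Wnt8a fills 72.9% of the D2 bars on average and 11.5% of the D7G bars, while Wnt4 widens to 29.7% at D7.

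Changes between groups were tested on the counts with edgeR's quasi-likelihood test over all 18818 genes, and a gene was called at a Benjamini-Hochberg adjusted p under 0.05. From D2 to D3, the day after CHIR99021 was added, 9 of the 9 ligands rose and none fell. Over all genes tested, 29.6% rose and 28.9% fell in that comparison (58.5% called), and the median log2 fold change was 1.83 over the ligands and 0.00046 over all genes. From D3 to D6, 2 ligands rose and 6 fell, where 32.4% of all genes rose and 33.3% fell (65.7% called), with a median of -1.65 over the ligands and -0.0069 over all genes. From D6 to D7, 3 rose, 3 fell and 3 did not pass, where 20.5% of all genes rose and 15.6% fell (36.0% called), with medians of -0.18 and 0.036.

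After 24 h with Gdf11, 5 ligands were higher than in D7 without it, none was lower and 4 did not pass, where 22.5% of all genes were higher and 18.2% lower (40.7% called). The median was 0.32 over the ligands and 0.022 over all genes, and without D7 replicate 2 or without D7G replicate 2 the count of 5 became 3. Against D6, 5 ligands were higher and 2 lower in D7G, where 30.6% of all genes were higher and 22.2% lower (52.8% called), with medians of 0.29 and 0.061. The libraries of the groups did not overlap for 9 ligands in D3 against D2 (79.5% of all genes), 8 in D6 against D3 (82.7%), 8 in D7 against D6 (66.4%), 7 in D7G against D7 (67.8%) and 9 in D7G against D6 (74.4%). The last 3 comparisons share libraries with one another, so their values are given side by side only.

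**Figure D3:**
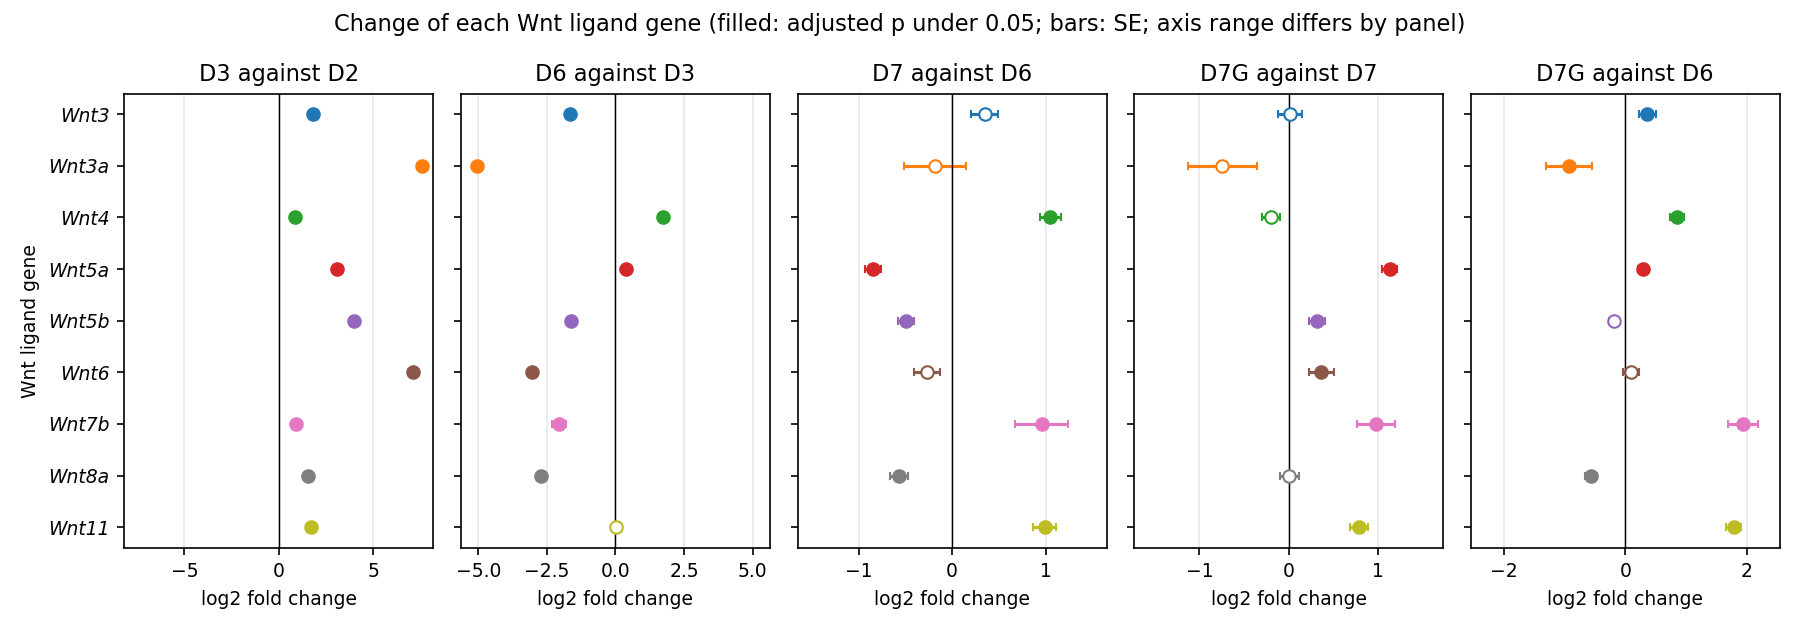
Log2 fold change of each Wnt ligand gene in the 5 comparisons, with bars for its standard error (SE); filled points have an adjusted p under 0.05 and the axis range differs between panels. All 9 points lie right of zero in D3 against D2, and in D6 against D3 only Wnt4 and Wnt5a are filled on the right.

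Among the ligands known for β-catenin signalling, Wnt8a, which marks the early streak and tail bud (chr18:34542313-34548273), held the highest level per kb of the 9 ligands at D2 and D3. Its level was 10.5 and 10.5 CPM per kb at D2, 30.2 and 30.1 at D3, 4.66 and 4.49 at D6, 2.93 and 3.24 at D7, and 3.29 and 2.92 at D7G. Every group was apart from the next except D7 and D7G, which overlapped. Wnt8a rose by 1.52 ± 0.07 (log2 fold change ± SE) at D3 (adjusted p = 1.02e-13), fell 6.58-fold to D6 (-2.72 ± 0.07, adjusted p = 7.38e-17) and fell again to D7 (-0.57 ± 0.10, adjusted p = 0.000152). With Gdf11 its log2 difference from D7 was 0.0079 ± 0.11 (adjusted p = 0.963), and its sign turned in 10 of the alternative fits. Against D6 it was lower in D7G by -0.56 ± 0.10 (adjusted p = 7.74e-05).

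Wnt3a, the ligand required for trunk and tail formation (chr11:59248033-59290752, minus strand), stood high only at D3. Its counts were 2 and 4 at D2, 633 and 646 at D3, 14 and 23 at D6, 15 and 20 at D7, and 8 and 12 at D7G. In CPM per kb this was 0.0237 and 0.0477, 7.02 and 7.22, 0.163 and 0.269, 0.163 and 0.218, and 0.0908 and 0.135 in the same order. The D3 libraries were far above all others, and D6 and D7 overlapped. Wnt3a rose by 7.58 ± 0.23 at D3 (adjusted p = 5.66e-16), the largest log2 change among the 9 ligands, though its size rests on the 2 and 4 counts of D2. It fell 32.8-fold to D6 (-5.03 ± 0.17, adjusted p = 1.51e-15). The differences from D6 to D7 (-0.18 ± 0.33, adjusted p = 0.713) and from D7 to D7G (-0.74 ± 0.39, adjusted p = 0.137) did not pass. It was lower in D7G than in D6 (-0.92 ± 0.38, adjusted p = 0.0481), a call lost with DESeq2 (adjusted p = 0.0635), with limma-voom (adjusted p = 0.0768) and in 7 other alternative fits, among them those without D6 replicate 2 (-0.53, adjusted p = 0.408) and without D7G replicate 1 (-0.73, adjusted p = 0.201).

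Wnt3, needed in the embryo to start the primitive streak (chr11:103774150-103817957, plus strand), moved less. Its level was 0.820 and 0.760 CPM per kb at D2, 2.86 and 2.78 at D3, 0.910 and 0.882 at D6, 1.19 and 1.10 at D7, and 1.17 and 1.13 at D7G. D3 stood apart at the top, and D7 and D7G overlapped. Wnt3 rose 3.56-fold at D3 (1.83 ± 0.13, adjusted p = 1.83e-10) and fell 3.14-fold to D6 (-1.65 ± 0.12, adjusted p = 3.55e-10), to a level near that of D2. From D6 to D7 its log2 difference was 0.35 ± 0.14 (adjusted p = 0.0627) and from D7 to D7G 0.013 ± 0.14 (adjusted p = 0.951). In D7G against D6 it was higher (0.36 ± 0.14, adjusted p = 0.0397), a call lost with DESeq2 (adjusted p = 0.199), and, among others, in each fit without a D3, D6, D7 or D7G library.

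Wnt6, a ligand known from the surface ectoderm (chr1:74771892-74785322, plus strand), joined the leaders at D3 from near the bottom of the order. Its level was 0.134 and 0.240 CPM per kb at D2, 22.8 and 29.0 at D3, 3.02 and 3.30 at D6, 2.73 and 2.51 at D7, and 3.32 and 3.43 at D7G. No library of D3 overlapped another group, and the later groups lay within a narrow range. Wnt6 rose 137-fold at D3 (7.10 ± 0.18, adjusted p = 2.24e-17) from 9 and 16 counts to 1633 and 2060, and fell 8.19-fold to D6 (-3.03 ± 0.11, adjusted p = 3.33e-15). The difference from D6 to D7 did not pass (-0.27 ± 0.14, adjusted p = 0.151), nor did that from D6 to D7G (0.095 ± 0.14, adjusted p = 0.592). It was higher in D7G than in D7 (0.36 ± 0.14, adjusted p = 0.0434), a call lost with DESeq2 (adjusted p = 0.0515), limma-voom (adjusted p = 0.12), no filter on low counts (adjusted p = 0.143) and without any library of D7 or D7G (adjusted p between 0.0947 and 0.249).

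Wnt7b, known from neural tissue and epithelia (chr15:85535439-85581821, minus strand), stayed low throughout. Its level was 0.327 and 0.366 CPM per kb at D2, 0.562 and 0.755 at D3, 0.146 and 0.168 at D6, 0.319 and 0.293 at D7, and 0.512 and 0.698 at D7G. D3 and D7G were its high groups and overlapped with each other, and D6 was its lowest. It rose at D3 (0.93 ± 0.21, adjusted p = 0.000775) and fell 4.17-fold to D6 (-2.06 ± 0.25, adjusted p = 3.42e-07). It rose again to D7 (0.96 ± 0.28, adjusted p = 0.0121), a call lost without D6 replicate 1 (adjusted p = 0.0827) or D7 replicate 1 (adjusted p = 0.0752). In D7G it was higher than in D7 (0.98 ± 0.21, adjusted p = 0.00102) and than in D6 (1.94 ± 0.25, adjusted p = 1.76e-06).

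Of the ligands known for polarity and movement, Wnt5b was among the 3 highest ligands in every group (chr6:119432531-119544347, minus strand). Its level was 1.67 and 1.35 CPM per kb at D2, 22.9 and 24.1 at D3, 7.23 and 7.94 at D6, 5.69 and 5.06 at D7, and 6.32 and 7.09 at D7G. D3 was its highest group, D7 its lowest after D2, and D7G lay between D7 and D6, with all groups apart. Wnt5b rose 15.5-fold at D3 (3.96 ± 0.10, adjusted p = 1.42e-17), fell 3.10-fold to D6 (-1.63 ± 0.07, adjusted p = 1.31e-13) and fell to D7 (-0.50 ± 0.09, adjusted p = 0.000136). It was higher in D7G than in D7 (0.32 ± 0.09, adjusted p = 0.00559), a call lost without D7 replicate 2 (0.21, adjusted p = 0.131) or D7G replicate 2 (0.22, adjusted p = 0.102). Against D6 its log2 difference was -0.18 ± 0.08 (adjusted p = 0.0789), which passed in 9 alternative fits, among them without D7G replicate 2 (-0.32, adjusted p = 0.00936). Fbxl14, a protein-coding gene inside the span of Wnt5b on the opposite strand, held 1654 to 1664 counts at D2, 3663 to 3689 at D3 and 2174 to 2422 later, and the use of strand in counting is not given in the sources used here, so reads of the genes cannot be told apart where they overlap. The antisense genes in Wnt5a, Wnt6 and Wnt7b had at most 3 counts in a library.

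Wnt5a, which guides the elongation of the body axis and limbs (chr14:28504750-28527448, plus strand), rose from D3 to D6, where Wnt5b fell. Its level was 0.226 and 0.248 CPM per kb at D2, 2.06 and 1.99 at D3, 2.68 and 2.63 at D6, 1.54 and 1.42 at D7, and 3.01 and 3.46 at D7G. D7G was its highest group and D7 lay below D3, with no overlap between any of the groups. Wnt5a rose 8.52-fold at D3 (3.09 ± 0.12, adjusted p = 3.03e-14) and rose again to D6, where 6 of the ligands fell (0.39 ± 0.08, adjusted p = 0.000239). It fell to D7 (-0.85 ± 0.08, adjusted p = 2.2e-07). With Gdf11 it was 2.19-fold higher than in D7 (1.13 ± 0.08, adjusted p = 9.38e-10), the largest difference among the ligands in that comparison. In D7G against D6 it was higher (0.29 ± 0.08, adjusted p = 0.00342), a call lost without D7G replicate 2 (0.13, adjusted p = 0.219).

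Wnt11, a ligand of gastrulation movements (chr7:98835112-98855195, plus strand), reached its highest level at the end of the course. Its level was 0.230 and 0.295 CPM per kb at D2, 0.896 and 0.783 at D3, 0.848 and 0.874 at D6, 1.71 and 1.71 at D7, and 3.08 and 2.83 at D7G. D3 and D6 overlapped, and D7 and D7G were each apart from every other group. It rose 3.20-fold at D3 (1.68 ± 0.18, adjusted p = 1.29e-07) and its log2 difference from D3 to D6 was 0.036 ± 0.14 (adjusted p = 0.835). It rose 1.99-fold to D7 (0.99 ± 0.12, adjusted p = 4.57e-06) and was 1.73-fold higher in D7G than in D7 (0.79 ± 0.10, adjusted p = 3.35e-06). In D7G against D6 the log2 fold change was 1.78 ± 0.12 (adjusted p = 1.05e-10).

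Wnt4, known for kidney, gonad and spinal cord floor plate development (chr4:137277489-137299726, plus strand), moved from the seventh place at D3 to the top at D7. Its level was 0.484 and 0.613 CPM per kb at D2, 0.796 and 1.15 at D3, 3.64 and 2.83 at D6, 6.39 and 7.04 at D7, and 5.57 and 6.11 at D7G. The groups did not overlap, and D7 was the highest. Wnt4 rose at D3 (0.83 ± 0.21, adjusted p = 0.00172), a call lost without D3 replicate 2 (0.55, adjusted p = 0.0557). It rose 3.32-fold to D6 (1.73 ± 0.15, adjusted p = 2.09e-09) and 2.07-fold to D7 (1.05 ± 0.11, adjusted p = 4.19e-07). With Gdf11 its log2 difference from D7 was -0.20 ± 0.10 (adjusted p = 0.123), and with only the libraries of D7 and D7G fitted it was called lower (-0.22, adjusted p = 0.0376). It was higher in D7G than in D6 (0.85 ± 0.11, adjusted p = 1.9e-06).

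Markers of other cell types moved between the same groups. Of 5 embryo fibroblast genes (Col1a1, Col1a2, Postn, Thy1, Dcn), all 5 were at 1 CPM or more in both libraries at D2 and D3, 3 at D6 and D7, and 4 at D7G. They summed to between 124 and 156 CPM at D2, 256 and 266 at D3, 16.8 and 18.7 at D6, 49.6 and 49.9 at D7, and 335 and 361 at D7G. At D7G Dcn was at 0.658 and 0.684 CPM and Thy1 at 1.13 and 1.09, whereas at D3 Dcn was at 7.60 and 8.61 CPM and Thy1 at 8.15 and 7.43. Their part in the rises of the ligands at D3 and D7G was not tested. Neuronal genes (Tubb3, Dcx, Elavl3, Stmn2, Nhlh1) summed to between 207 and 212 CPM at D2, 114 and 119 at D3, 70.8 and 74.5 at D6, 106 and 110 at D7, and 199 and 211 at D7G, with 4 of the 5 at 1 CPM or more at D2 and D3 and 5 from D6 on. From D3 to D6, 3 of the 5 rose and 2 fell, with Stmn2 down from 79.8 to 21.5 CPM. From D2 to D7G, Stmn2 went from 98.9 to 27.5 CPM and Elavl3 from 27.0 to 13.5. Tubb3 went from 80.9 to 129 CPM between the same groups, Dcx from 2.12 to 26.9 and Nhlh1 from 0.968 to 8.34. Presomitic and somitic genes (Tbx6, Msgn1, Meox1, Tcf15, Foxc2) summed to between 18.1 and 19.3 CPM at D2, 14.0 and 16.6 at D3, 60.2 and 75.4 at D6, 26.7 and 27.6 at D7, and 13.4 and 15.2 at D7G, with 3 of the 5 at 1 CPM or more at D7 and at D7G. At D3 Tcf15 fell from 16.6 to 3.32 CPM, Msgn1 rose from 0 to 6.61 and Tbx6 from 1.77 to 4.94. Meox1 and Foxc2 did not pass at D3, and Meox1 held most of the D6 sum (43.1 CPM). Spinal cord progenitor genes (Pax6, Sox1, Irx3, Olig2, Nkx6-1) summed to between 156 and 162 CPM at D2, 50.8 and 53.2 at D3, 130 and 147 at D6, 168 and 173 at D7, and 99.0 and 102 at D7G. From D2 to D7, Olig2 went from 53.7 to 4.52 CPM and Sox1 from 75.6 to 62.6. Irx3 went from 7.06 to 70.5 CPM between the same groups, Pax6 from 21.8 to 28.3 and Nkx6-1 from 0.459 to 4.53. At D3, 1 of the 5 (Nkx6-1) rose and 3 fell. In D7G against D7, 1 (Olig2) was higher and 3 were lower. Lateral plate genes (Foxf1, Hand1, Hand2, Gata4, Tbx4) summed to between 22.4 and 23.7 CPM at D2, 37.5 and 41.6 at D3, 30.2 and 33.5 at D6, 39.8 and 43.5 at D7, and 51.0 and 65.6 at D7G. Gata4 held most of each sum, with means of 18.3, 33.7, 29.9, 39.2 and 54.9 CPM in the same order. Foxf1 and Hand1 had means below 1 CPM in every group. Tbx4 went from 3.58 CPM at D2 to 1.22 at D7G, and Hand2 from 0.0820 to 1.51. Endoderm genes (Sox17, Foxa1, Foxa2, Gata6, Epcam) summed to between 360 and 368 CPM at D2, 197 and 216 at D3, 86.8 and 104 at D6, 140 and 169 at D7G, and to 110 in both libraries of D7. Epcam, which held most of the D2 and D3 sums, fell from 353 to 170 CPM at D3. The others rose there: Sox17 from 2.99 to 17.2 CPM, Foxa1 from 0.920 to 1.74, Foxa2 from 1.41 to 6.43 and Gata6 from 5.70 to 11.1. The part of these cell types in the results was not tested either.

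Some members lie beside another Wnt gene on the chromosome, and these neighbours, named for their position and after their values were seen, did not all move alike. Wnt6 and Wnt10a are 6193 bases apart on chromosome 1, Wnt3a and Wnt9a 16175 bases apart on chromosome 11, and Wnt9b and Wnt3 24328 bases apart on the same chromosome. Wnt10a was at 0.0663 and 0.0267 CPM per kb at D2 and at 0.993 and 1.12 at D3. It rose by 4.46 ± 0.37 at D3 (adjusted p = 2.31e-09) and fell to D6 (-3.24 ± 0.30, adjusted p = 1.1e-08), as Wnt6 did, at a lower level. Wnt9a was at 2.75 and 2.58 CPM per kb at D2, 2.85 and 3.26 at D3, 0.715 and 0.698 at D6, 1.08 and 1.16 at D7, and 2.18 and 2.20 at D7G. Its difference at D3 did not pass (0.20 ± 0.10, adjusted p = 0.0974), where Wnt3a rose. Wnt9a fell to D6 (-2.11 ± 0.12, adjusted p = 8.92e-12), rose to D7 (0.66 ± 0.15, adjusted p = 0.00158) and was higher in D7G than in D7 (0.97 ± 0.12, adjusted p = 1.74e-06), where Wnt3a did not pass. Wnt9b stayed at or below 0.102 CPM per kb, rose at D3 (1.82 ± 0.60, adjusted p = 0.0136) and passed in no other comparison.

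**Figure D4:**
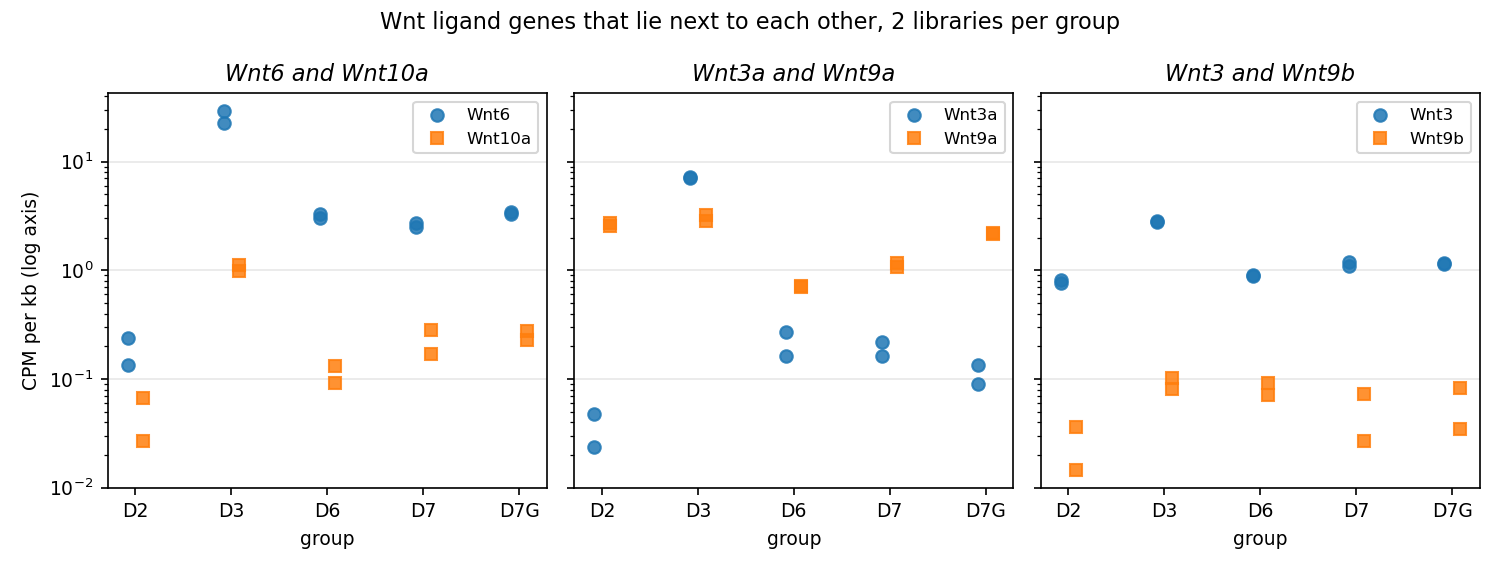
Level in CPM per kb (log axis) of a member (circles) and its neighbouring Wnt gene (squares) in the 5 groups, 1 point per library. Wnt6 and Wnt10a both peak at D3, while Wnt9a lies between 2.18 and 3.26 CPM per kb at D2, D3 and D7G, and Wnt3a peaks at D3.

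For each ligand that led a group, the 3 genes with the most similar profile were taken by Pearson's r of log2 CPM over the 10 libraries, among 11639 named genes (predicted and clone names left out) that reached 5 CPM in some group. They were Epha1 (r = 0.997), Snx8 (0.995) and Ric3 (0.991) for Wnt8a. For Wnt5b they were Mettl6 (0.997), the streak factor gene T (0.989) and Grsf1 (0.989). For Wnt4 they were Draxin (0.993), which encodes a secreted Wnt antagonist, Fads1 (0.992) and Fbf1 (0.992). The 10 libraries are 5 groups of 2, so these values describe a likeness over few independent points. Among the ligands, Wnt5b and Wnt6 had the closest profiles (r = 0.987), and Wnt4 and Wnt8a the most opposed (r = -0.831).

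The genes through which the ligands act were counted in lists whose largest called changes are named. At D3, where 29.6% of all genes rose and 28.9% fell, 9 of 10 genes of ligand maturation and release rose and none fell (median 0.47, against 0.00046 over all genes). Wls, the Wnt carrier, went from 54.3 ± 0.246 to 208 ± 3.42 CPM (1.93 ± 0.04, adjusted p = 2.38e-18), and Porcn, the Wnt acyltransferase, from 13.0 ± 0.726 to 39.2 ± 0.662 CPM (1.59 ± 0.08, adjusted p = 1.68e-12). Of the 10 other Wnt genes, 9 were tested and 4 rose. Of 12 Frizzled and Lrp genes, 5 rose and 6 fell, with Fzd10 up from 5.66 ± 0.697 to 138 ± 0.780 CPM (4.61 ± 0.07, adjusted p = 1.39e-20) and Fzd7 down from 211 ± 0.991 to 83.4 ± 0.605 CPM (-1.34 ± 0.04, adjusted p = 1.27e-15). Of 6 alternative Wnt receptor genes tested, 2 rose, among them Ptk7 (1.47 ± 0.04, adjusted p = 2.44e-17), a planar polarity receptor, and 3 fell. Both receptor lists held genes that rose and genes that fell.

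The next lists hold genes that amplify or dampen Wnt signals, read against the 58.5% of all genes called at D3. Of 8 R-spondin and receptor genes tested, 4 rose and 2 fell (1 without either D2 library or without D3 replicate 2). Rspo3, a secreted amplifier, rose by 5.82 ± 0.18 (adjusted p = 4.59e-16) and Lgr5, an R-spondin receptor, by 2.85 ± 0.25 (adjusted p = 5.76e-09). Of 17 antagonist genes tested, among them those of the membrane proteins Kremen1, Kremen2 and Apcdd1, 11 rose and 3 fell (median 0.66). Notum, which removes the Wnt lipid, rose by 3.59 ± 0.12 (adjusted p = 3.57e-15), Dkk1, which blocks Lrp, by 2.31 ± 0.17 (adjusted p = 3.97e-10), and Sfrp1 fell (-1.42 ± 0.05, adjusted p = 1.09e-15). Of 14 planar polarity genes, which include the Frizzled genes Fzd3 and Fzd6, 8 rose and 4 fell. Of 11 β-catenin target and TCF factor genes 7 rose and 3 fell, with Sp5 at 8.59 ± 0.17 (adjusted p = 5.36e-19). The 3 that fell were Nkd2 (-0.35 ± 0.08, adjusted p = 0.000673) and the TCF factor genes Tcf7l1 (-1.16 ± 0.07, adjusted p = 8.34e-12) and Tcf7l2 (-0.45 ± 0.10, adjusted p = 0.000764).

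From D3 to D6, when 6 ligands fell and 32.4% of all genes rose and 33.3% fell (65.7% called), 9 of the 12 Frizzled and Lrp genes rose and 3 fell (median 0.65, against -0.0069 over all genes). Fzd9 rose by 2.35 ± 0.10 (adjusted p = 5.18e-14) and Fzd3 by 1.24 ± 0.04 (adjusted p = 1.65e-15), while Fzd6 fell (-0.92 ± 0.07, adjusted p = 1.59e-10). Of the release genes 4 rose and 5 fell. Of the R-spondin list 1 rose and 5 fell, with Rspo3 at -1.94 ± 0.10 (adjusted p = 2.09e-12). Of 17 antagonists 6 rose and 6 fell, a called share near that of all genes, with the Frizzled-related Frzb up (1.83 ± 0.12, adjusted p = 5.43e-11) and the Dkk receptor gene Kremen2 down (-3.70 ± 0.30, adjusted p = 1.41e-09). Ptk7 fell (-1.11 ± 0.04, adjusted p = 1.02e-15) and the Wnt5a receptor gene Ror2 rose (0.56 ± 0.05, adjusted p = 4.63e-09).

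From D6 to D7, where 20.5% of all genes rose and 15.6% fell, 8 of 17 antagonists rose (median 0.33, against 0.036 over all genes), led by Wif1, which binds Wnt proteins (1.44 ± 0.13, adjusted p = 1.25e-07), and Draxin (1.02 ± 0.09, adjusted p = 5.15e-08). The shares over all genes depend on the filter: with at least 1 CPM in 2 libraries, 3355 of 15908 genes rose and 3508 fell. A fall was called for 1 antagonist, Dkk1 (-0.45 ± 0.14, adjusted p = 0.0154), and this count became 4 without either D7G library and 2 without either D3 library. Of 14 planar polarity genes 10 rose and 1, Prickle1, fell (-0.80 ± 0.06, adjusted p = 2e-08). Of the 11 β-catenin target and TCF factor genes none rose and 7 fell, with Cdx1 at -1.12 ± 0.07 (adjusted p = 3.05e-10). Of 12 Frizzled and Lrp genes 3 rose and none fell, but without D6 replicate 2 or either D7 library 1 rose, and without either D3 or either D7G library 2 fell.

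With Gdf11, where 22.5% of all genes were higher than in D7 and 18.2% lower (40.7% called), 9 of 17 antagonists were higher than in D7 and 3 lower (median 0.56, against 0.022 over all genes). Apcdd1, a membrane-bound inhibitor, went from 23.2 ± 2.32 to 117 ± 13.8 CPM (2.33 ± 0.08, adjusted p = 9.43e-15), Dkk2 from 1.95 ± 0.0762 to 11.4 ± 0.352 CPM (2.54 ± 0.14, adjusted p = 1.54e-11) and Dkk1 from 6.09 ± 1.08 to 15.6 ± 1.33 CPM (1.35 ± 0.13, adjusted p = 4.82e-08). Of the Frizzled and Lrp genes 3 were higher and 5 lower, with Fzd9 at -0.97 ± 0.09 (adjusted p = 2.8e-08) and Fzd7 at -0.60 ± 0.04 (adjusted p = 1.11e-09). Of the release genes 6 were higher and 1 lower. Of the alternative receptors 3 were higher, Ror2 among them (0.22 ± 0.05, adjusted p = 0.00135), and 1 without D7G replicate 2. Of the R-spondin list 3 were higher, led by Rspo3 (1.17 ± 0.13, adjusted p = 6.68e-07), and 1 without D7 replicate 2 or D7G replicate 1. Of the 11 β-catenin target and TCF factor genes 6 were higher and 3 lower, with the feedback genes Nkd2 (1.63 ± 0.06, adjusted p = 2.83e-14) and Axin2 (0.47 ± 0.06, adjusted p = 1.58e-06) among the higher.

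**Figure D5:**
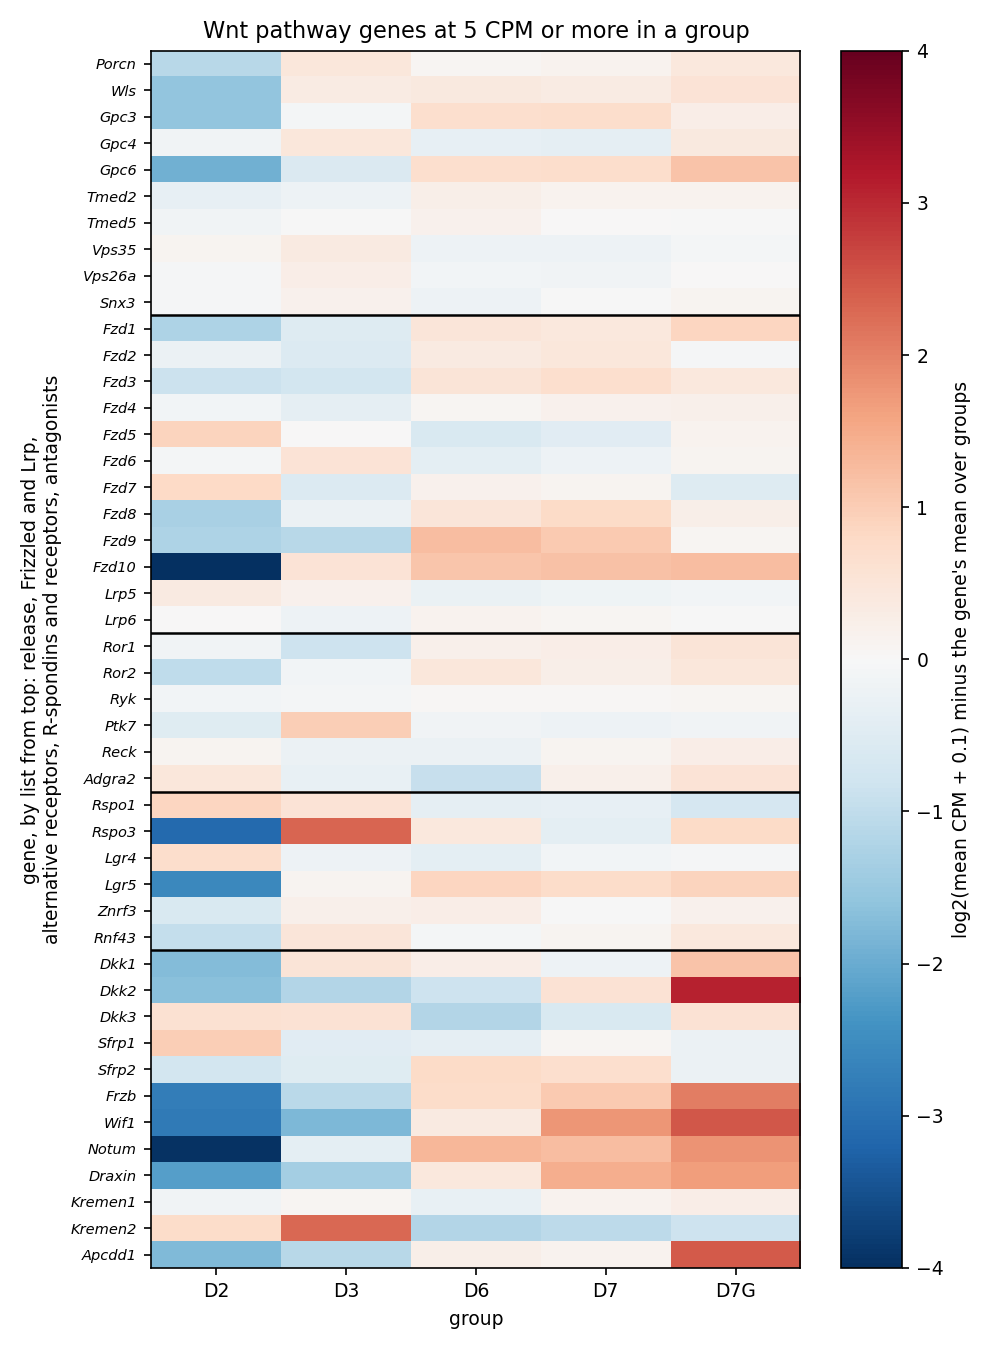
Mean level of 46 Wnt pathway genes with at least 5 CPM in a group, as log2(CPM + 0.1) minus the gene's mean over the 5 groups; rows are genes by list, columns are groups, and colours stop at 4 in either direction. Fzd10 and Notum are lowest at D2, Rspo3 and Kremen2 highest at D3, and Dkk2, Wif1 and Apcdd1 highest at D7G.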

How the data were processed

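Raw read counts per gene symbol for 10 RNA-seq libraries were used as the authors deposited them. The tools named are featureCounts 1.6.3, HISAT2 2.1.0, limma and STAR, with build mm10, per the submitters' processing notes. Their roles, the counting options, the use of strand and the gene model are not given in the sources used here. Library totals were 31078950 to 33418015 counts, and ligands with under 10 counts in a library, such as Wnt3a at D2, are the least precise. Counts were fitted in R 4.3.3 with edgeR 4.0.16 (filterByExpr, TMM, quasi-likelihood test, 1 coefficient per group, all 10 libraries, 5 residual degrees of freedom), with Benjamini-Hochberg adjustment over the 18818 genes tested. The SE is the log2 fold change divided by the square root of F. CPM per kb used the exon length in the deposited count table. Gene spans are those of the deposited table on mm10, and overlaps with other genes come from GENCODE vM21. An exact permutation test of 2 against 2 libraries cannot go below p = 0.333, so single values carry no such test.

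The ligands, gene lists, tests and alternatives were chosen with earlier results of these data known. All 9 ligands are named. Of the other lists, up to 4 genes per list and comparison could be named, the largest changes among called genes with at least 5 CPM in a group and groups that do not overlap. Alternatives were DESeq2 1.42.0, limma-voom (limma 3.58.1), RLE factors, library totals, no filter, at least 1 CPM in 2 libraries, the other deposited count table (55298 Ensembl genes), only the libraries compared, a term for the replicate number, each library left out, and other lengths or ligand sets for the shares. A group left with 1 library was assumed to vary like the others. The fit was checked on simulated counts. The authors' own table of fold changes was not used here.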

Additional observations from a re-analysis of the deposited data

How the results depend on the processing

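Of 855 values of single ligands under the alternatives, 783 kept their direction and their side of the threshold, 38 lost the call, 13 gained it and 21 changed sign. All 21 changes of sign were in differences that did not pass. For Wnt8a in D7G against D7 (0.0079) the log2 difference became -0.00025 with DESeq2, -0.00028 with RLE factors, -0.019 with no filter, -0.0093 with at least 1 CPM in 2 libraries, -0.016 in the other count table, -0.013 with only both groups' libraries, and -0.014, -0.014, -0.082 and -0.11 without D3 replicate 1, D3 replicate 2, D7 replicate 1 and D7G replicate 1. For Wnt3 in D7G against D7 (0.013) it became -0.014 with no filter, -0.0041 with at least 1 CPM in 2 libraries, -0.00012 in the other count table, -0.0078 with only both groups' libraries, and -0.0088, -0.0084, -0.067 and -0.038 without D3 replicate 1, D3 replicate 2, D7 replicate 2 and D7G replicate 1. For Wnt11 in D6 against D3 it became -0.041 with library totals and -0.052 without D3 replicate 2, and for Wnt3a in D7 against D6 0.22 without D6 replicate 2. Leaving out 1 library at a time, these differences ranged from -0.11 to 0.074 for Wnt8a, from -0.067 to 0.053 for Wnt3, from -0.052 to 0.14 for Wnt11 and from -0.50 to 0.22 for Wnt3a. The cause was not tested. Outside the calls given above, Wnt6 in D7G against D7 was also lost with at least 1 CPM in 2 libraries (adjusted p = 0.0544) and in the other count table (adjusted p = 0.0528), Wnt3 passed in D7 against D6 with library totals (adjusted p = 0.041) and Wnt6 passed there without D3 replicate 1 (adjusted p = 0.0413) or replicate 2 (adjusted p = 0.0438).

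Leaving out 1 library at a time, the ligands called ranged from 8 to 9 in D3 against D2, 8 to 8 in D6 against D3, 5 to 7 in D7 against D6, 3 to 5 in D7G against D7 and 5 to 7 in D7G against D6. The share of the leading ligand ranged from 72.8% to 72.9% at D2, 30.7% to 33.5% at D3, 31.0% to 34.0% at D6, 28.2% to 31.2% at D7 and 24.0% to 25.5% at D7G. At D2 it was 71.0% with the longest transcript as length, 57.2% with no length, 73.3% in the other count table and 59.7% of all 19 Wnt genes. With no length the main leader's share was 23.3% at D3, 26.2% at D6, 36.3% at D7 and 17.9% at D7G, and of all 19 Wnt genes it was 30.2%, 29.8%, 26.6% and 21.5%, since the denominator differs. The leader itself changed only with no length, at D3, D6 and D7G. Ranks below the leader were not followed through these alternatives.

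With the replicate number as a block, 9, 8, 6, 5 and 7 ligands were called in the comparisons in the order above and no ligand's call changed. Same-numbered libraries did not deviate together (correlations between -0.042 and 0.049). With 2 libraries per group, these correlations cannot show whether such libraries shared a culture or a preparation. For the gene lists, 2882 of 3040 counts stayed within 1.5 times. The counts over all genes moved as well. With at least 1 CPM in 2 libraries, 3834 of 15908 genes were higher and 3796 lower in D7G against D7. In the main fit these were 4241 and 3420 of 18818. Under the other scalings the median over all genes was between -0.084 and 0.096. Depth limits Wnt3a outside D3, with 2 to 23 counts, and Wnt7b, with 20 to 108.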
